A study of Mus musculus with 3 samples.

Results

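The genes described here are the neuropeptide genes of cortical somatostatin neurons: Sst, Cort, Npy, Tac1, Pdyn, Penk, Pnoc, Crh and Nts, which encode peptide precursors, and Crhbp, which encodes a protein that binds a peptide. They were chosen by name, with earlier results of these data known, and all 10 were found among the 31053 genes of the count matrices. The cells were GFP+ cells collected by FACS from the neocortex of SstCre/+;RCEfl/+ mice at E16.5, P1 and P5. Each stage is 1 10x library of pooled tissue. E16.5 had 6 animals, and P1 and P5 had 3 each. Cre sits at the Sst locus and switches GFP on permanently, so Sst chose the cells and its presence in them is no finding. Stage cannot be told apart from library, number of pooled animals and dissociation, since Percoll was used at P1 and P5 and trypsin with DNase at P5.

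Neuropeptides are split from larger precursor proteins, packed into dense-core vesicles and released to act on G-protein-coupled receptors of nearby or distant cells. In the cortex they are made mostly by GABA neurons, beside the fast transmitter, and the peptide content differs between types of these neurons. Somatostatin neurons arise in the medial ganglionic eminence, where the transcription factor Lhx6 marks the lineage. A small group of them makes nitric oxide through Nos1, sends axons over long distances and is known for its neuropeptide Y.

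The file of E16.5 holds 25638779 UMIs over 4478 cells, where a UMI marks a captured mRNA molecule. At P1 it holds 15654107 UMIs over 4440 cells, and at P5 it holds 13429055 over 3406 cells. Cells with more than 700 genes and under 10% of UMIs from mitochondrial (mt-) genes were kept, which left 9433 of 12324 cells (3952, 2501 and 2980 by stage). The libraries shared 3 cell barcodes between E16.5 and P1, 1 between E16.5 and P5 and 6 between P1 and P5. Cells with at least 1 Nos1 UMI, called Nos1 cells, numbered 67, 434 and 547 at E16.5, P1 and P5. Lhx6 cells without Nos1 numbered 3269, 1606 and 1874. Neither gene was seen in 616, 461 and 559 cells. Among these, 26, 23 and 17 had 2 or more UMIs of Neurod2 and Neurod6 together. These Neurod cells should lack the peptides and give a rough measure of free RNA. At E16.5 it is not only that, since 1 Neurod cell held 61 of their 88 Sst UMIs, 1 held all 67 Nts UMIs and 1 held all 11 Tac1 UMIs.

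Levels are CPM (counts per 1000000) of the UMIs summed over the cells of a class in a library, with exact Poisson 95% intervals in parentheses. With 1 library per stage there are no replicates and no test, and the intervals cover counting error only. Levels of different genes are compared as counts of captured molecules, and differences between genes in capture were not tested. Together the members reached 18024, 30315 and 39571 CPM in Nos1 cells at E16.5, P1 and P5, against 4706, 3067 and 3193 CPM in Lhx6 cells without Nos1. The Nos1 cells thus carried more peptide mRNA for their total at each stage, and their sum was higher at each later stage, while excitatory neuron markers in them fell from 704 to 183 and 6.62 CPM. Npy alone made 12366, 24679 and 34619 CPM of the sum in Nos1 cells. The sums thus follow Npy and do not describe each member.

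**Figure D1:**
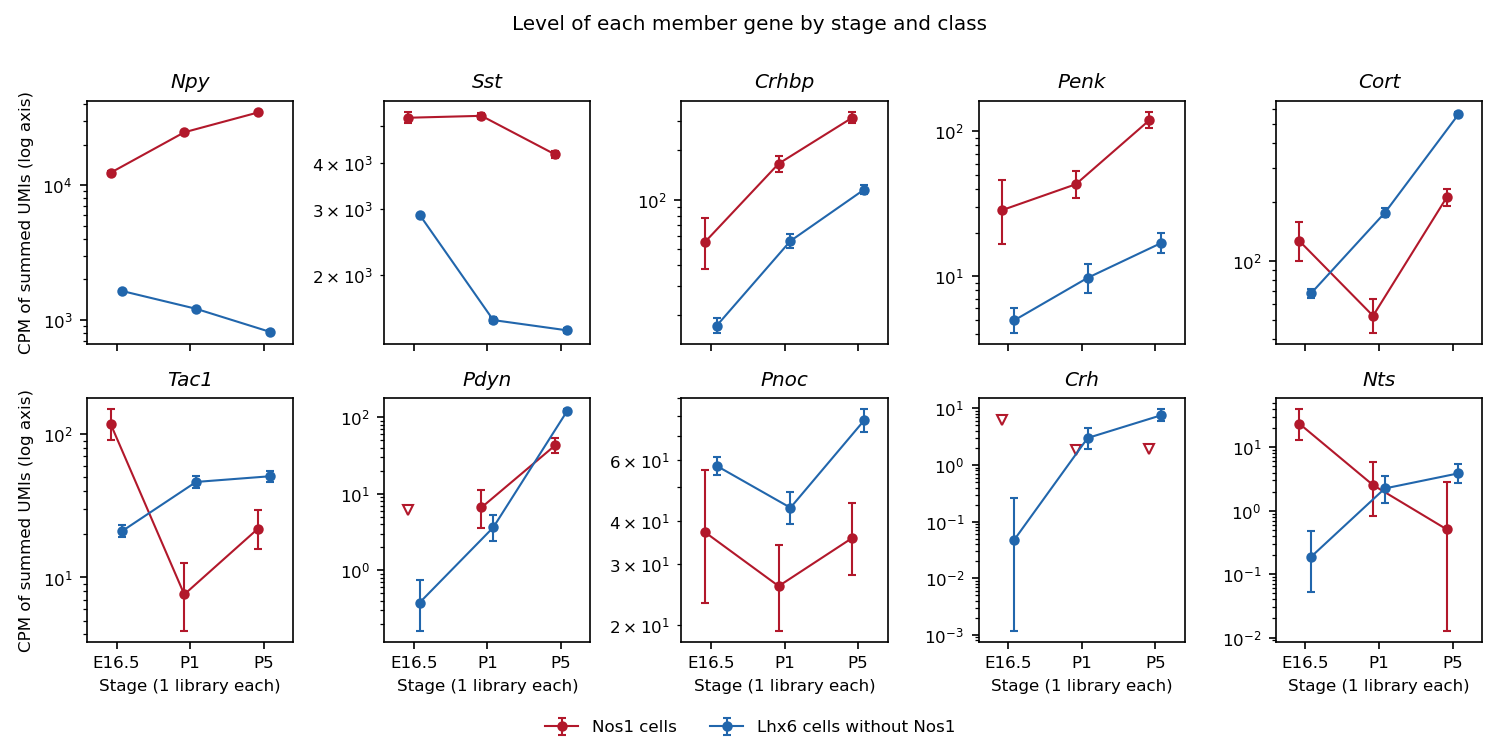
Level of each member in Nos1 cells (red) and in Lhx6 cells without Nos1 (blue) at 3 stages, in CPM on log axes that differ between panels. Bars are exact Poisson 95% intervals, open triangles are the upper limit of a count of 0, and Npy in Nos1 cells ends highest, at 34619 CPM.

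At P5 the order in Nos1 cells was Npy, Sst, Crhbp, Cort, Penk, Pdyn, Pnoc, Tac1, Nts and Crh. Pdyn and Pnoc, Pnoc and Tac1, and Nts and Crh had overlapping intervals. The order in Lhx6 cells without Nos1 was Sst, Npy, Cort, Pdyn, Crhbp, Pnoc, Tac1, Penk, Crh and Nts, and the intervals of Pdyn and Crhbp overlapped. Npy and Sst were the leading members in both classes at each stage, with Npy first in Nos1 cells and Sst first in the others.

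The classes were compared in each library by the log2 ratio of CPM plus 1, with an interval taken at the ends of the exact binomial interval of the 2 UMI sums. A gene was tested with 10 or more UMIs over both classes and called past a 2-fold difference. At E16.5, 8 members were tested, 5 were higher in Nos1 cells and 0 lower, where 6.45% of all tested genes were higher and 8.69% lower. At P1, 10 were tested, 4 were higher and 3 lower, against 4.33% and 3.72% of all genes. At P5, all 10 were tested, 4 were higher and 6 lower, against 4.22% and 7.08%. A pseudocount of 10 CPM left 2 lower in place of 6. The share of members past 2-fold was far above that of all genes in each library, and from P1 on it lay in both directions. The members were chosen with earlier results of these data known, so this excess is a description and no test. The median log2 ratio of all tested genes was -0.05, -0.03 and -0.07 by stage. CPM gives both classes the same total, so this median cannot show a shift in total RNA.

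Npy encodes neuropeptide Y, which acts on Y receptors and dampens transmitter release. Its level in Nos1 cells was 12366 CPM (12084 to 12652) at E16.5, 24679 (24460 to 24899) at P1 and 34619 (34360 to 34881) at P5. The Lhx6 cells without Nos1 had 1635 (1618 to 1652), 1208 (1184 to 1232) and 816 (797 to 834). The classes thus moved apart, and the log2 ratio between them was 2.92 (2.88 to 2.95), 4.35 (4.32 to 4.38) and 5.41 (5.37 to 5.44). With more than 1000 genes and under 5% mt- UMIs it was 3.07, 3.49 and 5.34, so the step to P1 was smaller there. Within Nos1 cells the log2 change was 1.00 from E16.5 to P1, just short of 2-fold, and 0.49 from P1 to P5. Within Lhx6 cells it was -0.44 and -0.57, but with cells of more than 1000 genes and under 5% mt- UMIs, which left 357 of the 1606 Lhx6 cells at P1, the changes became 0.68 and -1.80. Under the same filter the changes in Nos1 cells became 1.11, past 2-fold, and 0.05.

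The share of cells with an Npy UMI depends on depth, so each cell was thinned to 2000 UMIs, and shallower cells were left out. Median depth before thinning was 7863, 3704.5 and 3073 UMIs in Nos1 cells, 5808, 3811 and 4752.5 in Lhx6 cells without Nos1, and 11357, 5368 and 4954 in Neurod cells. After thinning, Npy was seen in 56.9%, 87.1% and 93.7% of Nos1 cells (n = 65, 356 and 414). It was seen in 47.9%, 53.4% and 40.3% of Lhx6 cells without Nos1 (n = 3100, 1315 and 1673). Of the few Neurod cells, 4 of 25, 10 of 20 and 1 of 17 had it by stage. At P1 the exact (Clopper-Pearson) interval of the Neurod share, 27.2% to 72.8%, spans the share of the Lhx6 cells. From 20 cells the 2 shares cannot be told apart, while the Npy level of the Neurod cells at P1, 615 CPM (491 to 762), was below that of the Lhx6 cells. The make-up of the Nos1 class also differed by stage, since 38 of 67, 126 of 434 and 81 of 547 cells had only 1 Nos1 UMI. Without thinning, Npy was seen in 52.6%, 79.4% and 65.4% of these. Of cells with 3 or more Nos1 UMIs, 87.5%, 99.3% and 100% had it. The part of this make-up in the higher Npy share at later stages was not tested.

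A higher threshold was passed by no Neurod cell. With 10 or more Npy UMIs after thinning, the share was 47.7%, 79.8% and 87.0% of Nos1 cells and 9.68%, 7.83% and 3.47% of Lhx6 cells without Nos1. It was 0 of the Neurod cells at each stage. The median Nos1 cell had 1, 56 and 65 thinned Npy UMIs by stage, so at E16.5 the class held cells with much Npy beside many with almost none. The upper quartile at E16.5 was 57 UMIs, close to the median at P1.

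Sst encodes somatostatin, which inhibits target cells through Sstr receptors. Its level was 5270 CPM (5087 to 5458), 5332 (5231 to 5435) and 4205 (4115 to 4296) in Nos1 cells by stage. The Lhx6 cells without Nos1 had 2901 (2878 to 2924), 1518 (1491 to 1545) and 1425 (1401 to 1450). The class log2 ratio was 0.86 (0.81 to 0.91), 1.81 (1.77 to 1.85) and 1.56 (1.52 to 1.60), which passed 2-fold at P1 and P5. Between E16.5 and P1 the Lhx6 cells changed by -0.93 and the Nos1 cells by 0.02 on the log2 scale, so the wider gap at P1 came with a lower level in the Lhx6 cells. After thinning, 66.2%, 87.4% and 94.0% of Nos1 cells and 65.6%, 59.3% and 59.4% of Lhx6 cells had an Sst UMI. Of the Neurod cells, 4 of 25, 2 of 20 and 0 of 17 had it, and 0 of 17 allows a share of up to 17.6% (3 counts of the total). Many sorted cells without an Sst UMI were therefore present at each stage, at a depth of 2000 UMIs.

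Cort encodes cortistatin, a relative of somatostatin that acts on the same receptors. In Nos1 cells it was 126 CPM (99.3 to 158) at E16.5, 52.3 (42.7 to 63.4) at P1 and 211 (191 to 232) at P5. Its level in Lhx6 cells without Nos1 was 68.3 (64.8 to 71.9), 176 (167 to 185) and 561 (546 to 577). The ratio between classes changed sign, at 0.88 (0.53 to 1.21), -1.73 (-2.03 to -1.45) and -1.41 (-1.56 to -1.26) on the log2 scale. Cort thus leaned to Nos1 cells at E16.5, short of 2-fold and from 75 UMIs in 19 cells, and was past 2-fold toward the Lhx6 cells at P1 and P5. Of the 75 UMIs, 49 lay in cells with only 1 Nos1 UMI and 16 in 1 cell with 6 or more. With 2 or more Nos1 UMIs the log2 ratio at E16.5 was 0.49. After thinning, 34.0% of Lhx6 cells had a Cort UMI at P5 against 6.16% at E16.5, and 10.9% of Nos1 cells had it at P5. Of the Neurod cells, 1 of 25 had it at E16.5 and 0 at P1 and P5.

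The opioid precursors are Penk, which yields enkephalins, Pdyn, which yields dynorphins, and Pnoc, which yields nociceptin. Penk was 28.6 CPM (16.7 to 45.8), 43.2 (34.5 to 53.4) and 120 (105 to 136) in Nos1 cells and 4.95 (4.04 to 5.99), 9.74 (7.70 to 12.2) and 17.0 (14.4 to 19.8) in Lhx6 cells without Nos1. It was higher in Nos1 cells at all 3 stages, with log2 ratios of 2.32 (1.53 to 3.02), 2.04 (1.60 to 2.47) and 2.75 (2.46 to 3.04). At E16.5 the Nos1 value rests on 17 UMIs, 82.4% of them in 5 cells. With more than 1000 genes and under 5% mt- UMIs the ratio at P1 was 4.09, and the Penk changes in Lhx6 cells became -1.40 and 3.09, from 0.85 and 0.74. At P5, 17.4% of Nos1 cells had a Penk UMI after thinning, against 2.57% of Lhx6 cells and 0 of 17 Neurod cells.

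Pdyn was the member with the largest change over stages. In Lhx6 cells without Nos1 it was 0.377 CPM (0.163 to 0.742) at E16.5, 3.62 (2.42 to 5.20) at P1 and 119 (112 to 126) at P5, a log2 change of 4.70 (4.26 to 5.14) from P1 to P5. In Nos1 cells it was 0 UMIs at E16.5, 6.60 CPM (3.51 to 11.3) at P1 and 42.8 (34.1 to 53.0) at P5. Pdyn therefore went up late in both classes, and it ended lower in Nos1 cells, with a class log2 ratio of -1.45 (-1.78 to -1.14) at P5. At P1 that ratio was 0.72 (-0.16 to 1.55), short of 2-fold. It became 2.52 with more than 1000 genes and under 5% mt- UMIs and 1.01 with 2 or more Nos1 UMIs. The change from 0 in Nos1 cells to P1 is at least 1.31-fold higher against a floor of 3 UMIs over the class, so the 2-fold call there rests on the pseudocount. After thinning, 11.8% of Lhx6 cells and 7.49% of Nos1 cells had a Pdyn UMI at P5.

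In the main setting Pnoc did not pass 2-fold between stages in either class. It was 37.0 CPM (23.2 to 56.1), 25.9 (19.3 to 34.0) and 35.7 (from 70 UMIs) in Nos1 cells and 57.5 (54.3 to 60.8), 43.6 (39.1 to 48.4) and 77.8 (72.2 to 83.7) in Lhx6 cells without Nos1. The class log2 ratio was -0.62 (-1.28 to -0.03), -0.73 (-1.16 to -0.32) and -1.10 (-1.47 to -0.76), past 2-fold only at P5. A pseudocount of 10 CPM ended that call (-0.94), and all cells in the files put P1 past 2-fold (-1.01). At E16.5 its sign depended on the scaling, since the mean of per-cell CPM gave 0.65. The same scaling put the Pnoc change from E16.5 to P1 in Nos1 cells past 2-fold, at -1.48 from -0.50. With more than 1000 genes and under 5% mt- UMIs that change was 0.16.

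Tac1 encodes substance P and neurokinin A, which excite cells through tachykinin receptors. It was 21.1 CPM (19.2 to 23.2), 46.4 (41.8 to 51.4) and 50.9 (46.4 to 55.7) in Lhx6 cells without Nos1. In Nos1 cells it was 118 (91.8 to 149), 7.62 (4.26 to 12.6) and 21.9 (15.9 to 29.5). The class log2 ratio went from 2.42 (2.04 to 2.78) at E16.5 to -2.46 (-3.19 to -1.79) at P1 and -1.18 (-1.64 to -0.74) at P5. The Tac1 call at P5 ended with all cells in the files (-0.34), with more than 1000 genes and under 5% mt- UMIs (-0.56), with Nos1 cells that also had Lhx6 (-0.86) and with a pseudocount of 10 CPM (-0.93). The Nos1 values rest on very few cells: 5 cells held 88.6% of the 70 Tac1 UMIs at E16.5, and at P5 1 cell held 22 of 43. Among the 437 cells with 3 or more Nos1 UMIs at P5 there were 4 Tac1 UMIs in all. Tac1 was thus close to missing from the cells with most Nos1, and 4.72% of Lhx6 cells had it at P5 after thinning.

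Nts encodes neurotensin, and it was rare. In Nos1 cells it had 14, 5 and 1 UMIs by stage, or 23.6 CPM (12.9 to 39.5), 2.54 (0.824 to 5.92) and 0.509 (0.0129 to 2.84). Of the 14 UMIs at E16.5, 13 came from 1 cell, so the class log2 ratio of 4.37 (3.59 to 4.80) describes that cell and not the class. Lhx6 cells without Nos1 had 0.188 CPM (0.0513 to 0.482), 2.25 (1.33 to 3.55) and 3.89 (2.72 to 5.38). The class log2 ratio was 0.12 (-0.97 to 1.22) at P1 and -1.70 (-2.30 to -0.27) at P5, the latter from 1 UMI against 36. All 5 UMIs of Nos1 cells at P1 came from 1 cell. The ratio at P1 became -1.75 with more than 1000 genes and under 5% mt- UMIs and -1.70 with 2 or more Nos1 UMIs.

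Crh encodes corticotropin-releasing hormone, and Crhbp the secreted protein that binds it and limits its action. Crh was not seen in any Nos1 cell, and 0 of 67, 434 and 547 cells allows a share of up to 4.48%, 0.691% and 0.548% with a UMI (3 counts of the total). In Lhx6 cells without Nos1 it was 0.0471 CPM (0.00119 to 0.262) from 1 UMI at E16.5, 3.00 (1.92 to 4.46) at P1 and 7.56 (5.89 to 9.55) at P5. Against the floor, Crh in Nos1 cells was at least 1.97-fold lower at P1 and at least 4.95-fold lower at P5, so the call at P1 rests on the pseudocount. At P1, 5 cells held 87.5% of its UMIs in the Lhx6 class.

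Crhbp went the other way. It was 55.5 CPM (38.2 to 78.0), 166 (149 to 185) and 316 (291 to 342) in Nos1 cells and 17.2 (15.5 to 19.1), 56.3 (51.2 to 61.8) and 115 (109 to 123) in Lhx6 cells without Nos1. The class log2 ratio was 1.63 (1.08 to 2.14), 1.54 (1.34 to 1.75) and 1.44 (1.30 to 1.59). With more than 1000 genes and under 5% mt- UMIs it was 2.01, 0.96 and 1.38, which ends the call at P1. Crhbp was higher at each later stage in both classes, and the binding protein was highest in the class where its ligand was not seen. After thinning, 38.6% of Nos1 cells and 14.6% of Lhx6 cells had a Crhbp UMI at P5, with 0 of 17 Neurod cells.

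The stage changes were counted by the same rule. From E16.5 to P1, 9 members were tested in Nos1 cells, with 2 higher and 3 lower, against 15.9% and 6.04% of all genes. From P1 to P5, 8 were tested there, with 4 higher and 0 lower, against 7.61% and 12.8%. In Lhx6 cells without Nos1, all 10 were tested at both steps. Going from E16.5 to P1, 6 were higher and 0 lower, against 10.3% and 3.25%, and going from P1 to P5, 4 were higher and 0 lower, against 8.86% and 9.91%. The members higher at both steps in Lhx6 cells were Cort (1.35 and 1.67), Pdyn (1.75 and 4.70), Crh (1.93 and 1.10) and Crhbp (1.65 and 1.02), all on the log2 scale. In the main setting Sst and Npy were not past 2-fold in either class at either step. With more than 1000 genes and under 5% mt- UMIs, Npy passed it in Nos1 cells from E16.5 to P1 (1.11). It also did in Lhx6 cells from P1 to P5 (-1.80). The calls in Lhx6 cells were thus toward higher levels, but of members that ranked below Sst and Npy. In the main setting Sst and Npy changed by -0.93 and -0.44 there from E16.5 to P1, and the sum of all members was lower at P1. Of the 6 calls from E16.5 to P1 only 1 was left, with 1 lower, under more than 1000 genes and under 5% mt- UMIs. There Cort was at 0.84 and Tac1 at -0.21. Of the 19 stage values called over both classes and steps, 15 stayed past 2-fold under that filter. Not every lost call thus lost its fold. The median mt- share was 4.04%, 6.27% and 4.35% by stage in Lhx6 cells and 3.80%, 4.67% and 3.25% in Nos1 cells. With a pseudocount of 10 CPM 2 of the 6 were left. From P1 to P5 that pseudocount ended the calls of Crh (0.43) and Crhbp (0.92). Crhbp also fell short of 2-fold there under 4 other settings, lowest at 0.80 with all cells in the files. The median log2 change of all genes from E16.5 to P1 was 0.18 in Nos1 cells and 0.16 in Lhx6 cells, and from P1 to P5 it was -0.16 and -0.07, which is small beside the called changes.

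The threshold of 1 Nos1 UMI lies within a range of Nos1 counts, and the levels given here are pooled over the cells of each bin. At P5, Npy was 816 CPM in Lhx6 cells with 0 Nos1 UMIs, 8445 with 1 (81 cells), 26528 with 2 (29 cells), 39423 with 3 to 5 (93 cells) and 40262 with 6 or more (344 cells). At P1 the same steps gave 1208, 5925, 15859, 29993 and 36786 CPM. Npy thus went up with the Nos1 count at both stages and leveled at the top at P5 only. Without thinning, 9.98%, 43.2%, 89.7%, 97.8% and 100% of the cells in these bins had 10 or more Npy UMIs at P5. The level with 1 Nos1 UMI thus pools cells with much Npy and cells with little or none. Sst at P5 was 1425, 2710, 3282, 5657 and 4350 CPM, so it was highest with 3 to 5 Nos1 UMIs. Cort at P5 was 561 CPM with 0, 830 with 1, 366 with 3 to 5 and 49.5 with 6 or more, and cells with 2 held 3 UMIs. At P1 it was 176, 106, 170, 34.9 and 7.14 CPM. Cort was thus lowest at the top of the range at P1 without a steady fall at P5. Cells with 1 Nos1 UMI held most of the Cort of the Nos1 class at P5, 260 of 414 UMIs, and with 2 or more Nos1 UMIs the class log2 ratio of Cort was -2.58. At E16.5 the bins hold 38, 13, 10 and 6 cells, and Npy was 8130, 19456, 17474 and 15515 CPM.

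**Figure D2:**
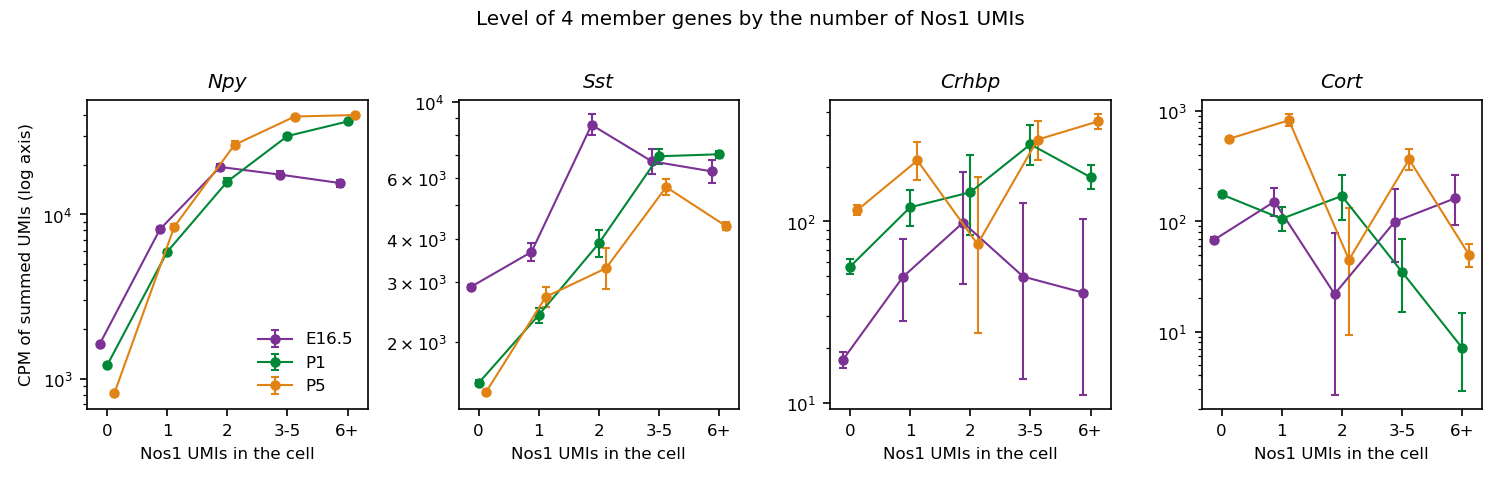
Level of Npy, Sst, Crhbp and Cort (CPM, log axes) in cells grouped by their number of Nos1 UMIs, where 0 stands for Lhx6 cells without Nos1 and colors are the stages. Bars are exact Poisson 95% intervals, and Cort at P5 is 830 CPM in cells with 1 Nos1 UMI and 49.5 CPM in those with 6 or more.

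Co-expression was read in the thinned cells as the number of cells with a UMI of both genes over the number that the shares of both would give if they were independent. Of 45 pairs, those with 5 or more cells so reckoned are described, and the interval is the exact Poisson 95% interval of the count. In Nos1 cells 2, 10 and 19 pairs were described by stage, and 0, 0 and 0 lay above 1 with their interval and 0, 0 and 2 below. In Lhx6 cells without Nos1, 14, 14 and 31 pairs were described, with 4, 4 and 10 above 1 and 2, 3 and 6 below. The shares alone thus did not give all pairs of the Lhx6 class. Fewer cells and shares of Sst and Npy near 94% at P5 leave little room for a ratio above 1 in Nos1 cells, so the counts of the 2 classes cannot be compared.

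In Nos1 cells at P5, 375 of 414 cells had both Sst and Npy. All 72 cells with Penk also had Npy, and 157 of 160 with Crhbp had it. Penk and Crhbp met in 39 cells where 27.8 were reckoned, a ratio of 1.40 (0.997 to 1.92). With Npy in 93.7% of the class, these numbers are close to what its share alone gives. The pairs below 1 were Tac1 with Sst and Tac1 with Npy, each found in 1 of 6 Tac1 cells.

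In Lhx6 cells without Nos1 at P5, Cort led a set of genes. Cort and Penk met in 38 cells where 14.6 were reckoned, a ratio of 2.60 (1.84 to 3.57), and these were 38 of the 43 Penk cells. Cort and Pnoc met in 115 cells against 60.2, and Cort and Crhbp in 151 against 83.3. Penk and Crhbp met in 16 against 6.30. Cort thus met Penk, Pnoc and Crhbp more often than their shares alone would give, while Pnoc and Crhbp as a pair had a ratio of 1.23 (0.844 to 1.74), not off 1. At P1, Cort and Crhbp already met in 30 cells against 13.2. Cort and Pnoc at P1 met in 11 against 10.9, while the 48 Lhx6 cells with 3 or more Pnoc UMIs held 455 CPM of Cort (392 to 524) against 145 (136 to 154) in cells with 0, so the 2 measures differed there.

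Most pairs below 1 held Tac1 or Pdyn. Tac1 met Pdyn in 1 cell against 9.30 at P5 and Crhbp in 2 against 11.6. Sst and Tac1 met in 44 cells against 64.3 at E16.5, 14 against 28.5 at P1 and 19 against 46.9 at P5. Npy and Tac1 met in 24 against 46.9, 8 against 25.6 and 16 against 31.9. Tac1 was thus found less often with Sst and with Npy at all 3 stages, while it met Cort more often at P5, in 43 cells against 26.9. Pdyn met Cort in 44 cells against 67.0 and Penk in 0 against 5.06 at P5. Sst and Npy met more often than reckoned at all 3 stages, with ratios of 1.30 (1.23 to 1.37), 1.12 (1.02 to 1.23) and 1.13 (1.03 to 1.24). Npy and Nts had a ratio of 2.12 (1.10 to 3.71) from 12 cells, which was 1.08 when cells were thinned to 1000 UMIs.

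**Figure D3:**
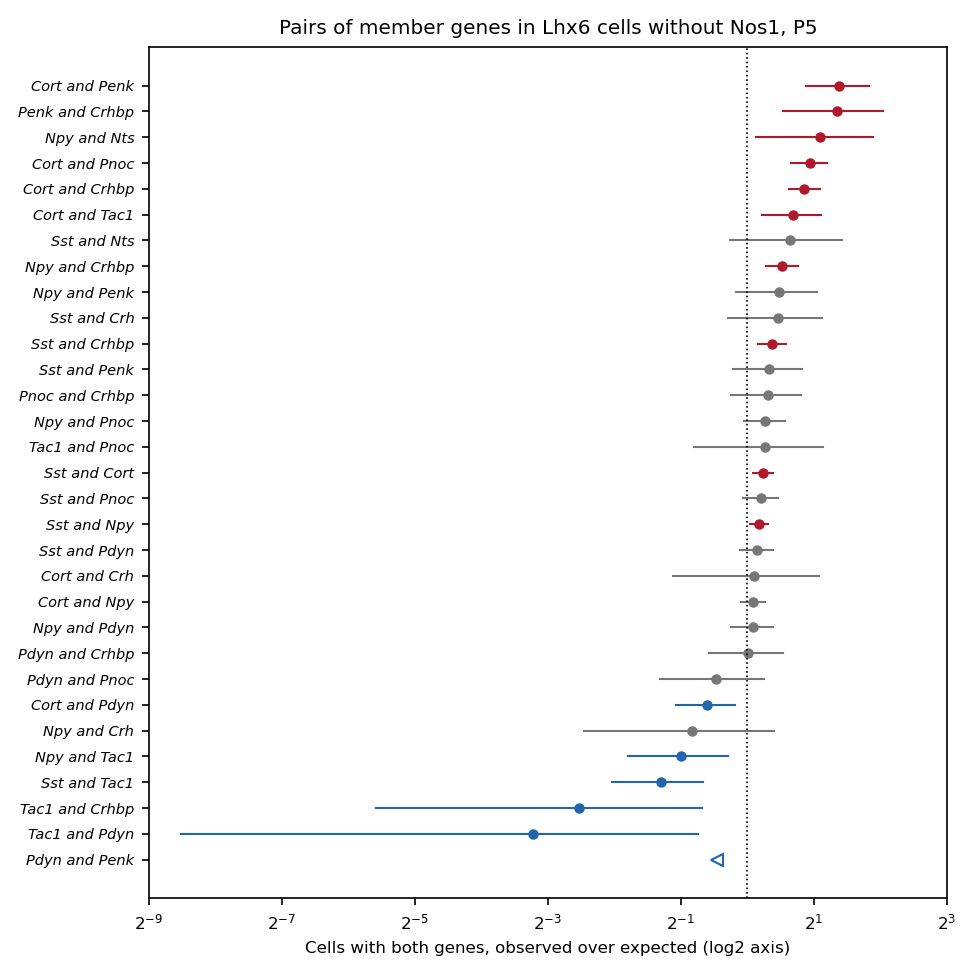
Cells with both genes of a pair, observed over expected (log2 axis), for the 31 described pairs in Lhx6 cells without Nos1 at P5. Lines are exact Poisson 95% intervals, red pairs lie above 1, blue pairs lie below 1 and the open triangle is the upper limit of a pair seen in 0 cells.

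Cells were also split by 3 or more UMIs of a member against 0, a split chosen after the data were seen. Cort-rich Lhx6 cells at P5 numbered 458, with a median of 5687 UMIs, and cells with 0 Cort UMIs numbered 1070, with a median of 4047.5. Crhbp was 253 CPM (235 to 273) in the Cort-rich cells and 39.1 (33.6 to 45.2) in the others, and Penk was 50.3 (42.2 to 59.4) and 2.15 (1.03 to 3.95). Of the 36 Nts UMIs of the class, 35 lay in Cort-rich cells and 0 in those without Cort. Pdyn ran the other way, at 47.0 CPM (39.2 to 55.9) and 152 (141 to 164). Pnoc was 154 CPM (139 to 169) and 33.0 (28.0 to 38.7), and Tac1 was 106 (94.2 to 119) and 17.6 (14.0 to 21.8). The direction was that of the pairs for Penk, Crhbp, Pnoc, Tac1 and Pdyn, in the same cells and so not as separate evidence.

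Tac1-rich Lhx6 cells at P5 numbered 57. They held 1189 CPM of Cort (1074 to 1314) against 534 (519 to 550) in cells with 0 Tac1 UMIs. Their Sst was 671 CPM (585 to 766) against 1485 (1459 to 1511), and their Npy 187 (143 to 240) against 855 (836 to 875). High Tac1 thus came with more Cort and with less Sst and Npy. Pdyn-rich cells, 140 in number, held 157 CPM of Cort (133 to 185) against 669 (650 to 688), and 0 Tac1 UMIs against 64.5 CPM (58.8 to 70.7) in cells with 0 Pdyn UMIs.

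The number of members with a UMI per thinned cell had a median of 2, 2 and 3 in Nos1 cells by stage and of 1, 1 and 2 in Lhx6 cells without Nos1. At P5, 3 or more members were seen in 54.6% of Nos1 cells and 26.8% of Lhx6 cells. None of the 10 was seen in 24.6%, 7.30% and 0.966% of Nos1 cells by stage and in 23.6%, 17.3% and 15.1% of Lhx6 cells. Cells without any member were thus rarer among Nos1 cells at P1 and P5 and not at E16.5. The share of Nos1 cells with only 1 Nos1 UMI differed by stage, and its part in these numbers was not tested.

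Genes most like a member were sought by Pearson correlation of log-scaled counts across all kept cells, by the lower r of P1 (2501 cells) and P5 (2980 cells), which are values across cells of 1 library and not across replicates. Npy was most like Nos1 (r of 0.66 and 0.77), Ptn (0.60 and 0.69) and Pcp4 (0.55 and 0.62). Sst was most like Npy (0.64 and 0.50), Pcp4 (0.44 and 0.42) and Nos1 (0.45 and 0.40). Cort was most like St6galnac5 (0.37 and 0.54), Rbp4 (0.36 and 0.46) and Pcdh17 (0.31 and 0.34). For the other 7 members no gene reached a lower r of 0.3, so none is named.

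Genes that make and pack peptides were followed beside the members. Of 14 genes for peptide processing and dense-core vesicles, all 14 were tested at each stage, with 2 higher in Nos1 cells and 1 lower at E16.5, 3 and 0 at P1, and 2 and 1 at P5. The prohormone convertase gene Pcsk2 was higher in Nos1 cells at P1 (1.98) and P5 (2.06), as was Pam (1.30 and 1.51), whose enzyme amidates the ends of peptides such as neuropeptide Y, in log2 ratios. Pcsk1n was the most abundant of the list, at 2044 CPM in Nos1 cells and 1554 CPM in Lhx6 cells at P5. The excess of Npy was thus not matched by the list as a whole, whose median log2 ratio at P5 was 0.18 against -0.07 for all genes.

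Receptors for the members' peptides were 19, of which 10, 13 and 16 were tested by stage. Of these, 4, 5 and 5 were higher in Nos1 cells and 1, 2 and 4 lower. Tacr1, the receptor for substance P, was 116 CPM in Nos1 cells and 3.62 CPM in Lhx6 cells at P1 and 169 and 2.81 CPM at P5. It was thus high in the class where Tac1 itself was low. Sstr1 was lower in Nos1 cells (-1.11 and -1.54 at P1 and P5), and Npy2r was higher (1.01 and 2.74). Among 38 other neuropeptide genes, 13, 10 and 15 were tested, with 0, 1 and 1 higher and 2, 3 and 7 lower. Cck was the most abundant of these at P5, at 19.4 CPM in Nos1 cells and 56.3 CPM in Lhx6 cells. The direction of Npy, Sst, Penk and Crhbp was therefore not that of neuropeptide genes in general.

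Marker lists show what the classes contain. Of 10 genes of medial ganglionic eminence and GABA identity, 10, 10 and 9 were tested, 1 higher at each stage, which is Nos1 itself and follows from the rule, and 4, 1 and 1 lower, not counting Lhx6, which chose the comparison cells and was not past 2-fold, with Satb1 at -1.01 and -1.66 at P1 and P5. The list's most abundant gene in Lhx6 cells at P5 was Satb1, at 700 CPM. Of 5 markers of Nos1 neurons, 4, 5 and 5 were higher, a count that again includes Nos1 itself, with Chodl at 4.44 and 5.62, Pou3f2 at 2.68 and 4.49 and Sox2 at 1.17 and 1.63 at P1 and P5. Beside Nos1, the Nos1 cells were thus higher for 4 markers of such neurons at P1 and P5.

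All 8 markers of excitatory neurons had UMIs in Nos1 cells at E16.5, summing to 704 CPM against 9.51 CPM in Lhx6 cells, with Neurod6 the most abundant. At P1 the sums were 183 and 11.9 CPM and at P5 6.62 and 5.51 CPM. Of those tested, 8 of 8, 6 of 6 and 0 of 2 were higher in Nos1 cells, and 1 of the 2 was lower at P5. At least 2 of the markers were seen in 14 of 67, 17 of 434 and 3 of 547 Nos1 cells. Without cells that had a UMI of Neurod2, Neurod6, Slc17a6 or Slc17a7, 52 Nos1 cells were left at E16.5, and the log2 ratio was 1.39 for Sst, 1.42 for Cort, 3.43 for Npy, 2.97 for Tac1, 2.67 for Penk and 2.20 for Crhbp. Nts fell from 4.37 to 1.61, with too few UMIs left to be tested. Sst and Cort then passed 2-fold at E16.5. The log2 change from E16.5 to P1 in Nos1 cells became 0.62 for Npy, -0.38 for Sst and -1.84 for Cort.

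Of 7 striatal projection neuron markers, 5, 4 and 3 were tested, 3, 3 and 2 were higher in Nos1 cells and 0 lower, with Drd1 (4.31 and 3.54) and Rarb (2.98 and 2.58) at P1 and P5. Their sum was 92.6, 141 and 107 CPM in Nos1 cells by stage and 9.23, 16.2 and 24.6 CPM in Lhx6 cells. Isl1 had 0 UMIs in both classes at each stage, and at P5 Ppp1r1b, Adora2a and Foxp2 also had 0 in Nos1 cells. The part of such cells in the levels of Penk and Tac1, which striatal neurons express, was not tested. Of 6 markers of caudally derived interneurons, 4, 3 and 3 were tested, 1, 2 and 1 higher and 3, 1 and 1 lower, with Vip at 0 UMIs and Npas1 at -1.35 and -3.38. The median log2 ratio of those tested was -2.56, 1.21 and 0.53 by stage, so this list did not go 1 way. Of 6 markers of subplate and Cajal-Retzius cells, 1 was tested at each stage, with 0 higher and 0, 0 and 1 lower. Of 10 glial, vascular and blood markers, 0, 0 and 1 were tested and none called, and their sum was at most 1.68 CPM in either class. In the 2 classes the members' levels thus come with almost no RNA of glia, vessels or blood. Cells with neither gene held 1.43, 28.4 and 48.7 CPM of these markers by stage.

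All 10 members are protein-coding genes in GENCODE release M21 on GRCm38, on 8 chromosomes. Sst (ENSMUSG00000004366) lies at chr16:23889573-23890958 on the minus strand, Npy (ENSMUSG00000029819) at chr6:49822710-49829507 on the plus strand, and Cort (ENSMUSG00000028971) at chr4:149125034-149126763 on the minus strand. Crhbp (ENSMUSG00000021680) lies at chr13:95431371-95444924 and Pdyn (ENSMUSG00000027400) at chr2:129686565-129699844, both on the minus strand. Tac1 shares chromosome 6 with Npy, and Penk shares chromosome 4 with Cort. Penk also overlaps A830012C17Rik, a transcript on the other strand. No member overlaps another, so no UMI of 1 member is counted for another by position.

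Promoters from the RefSeq table (GRCm38.p6) were searched in the 250 bases before the start, since Sst is known for a cAMP response element and several members moved together. The motif TGACGTCA and its 5-letter part TGACG were searched on both strands, and a TGACGTCA holds TGACG on both. A TGACGTCA is in 508 of 32851 promoters (1.55%) and a TGACG in 5836 (17.8%). Of the members, 7 have an entry, 1 of them with TGACGTCA (Sst) and 5 with TGACG (Sst, Cort, Tac1, Nts and Crhbp), while Npy and Pdyn have neither. Penk, Pnoc and Crh have no entry. The members higher in Nos1 cells at P1 and P5 thus do not share these letters in this window. Shown are 30 bases around the match nearest to the start in Sst, which holds the full element, in Crhbp, which was higher in Nos1 cells like Sst, and in Cort, which was lower there at P1 and P5. The match is in capitals and begins 48, 64 and 18 bases before the RefSeq start, at chr16:23890874-23890903, chr13:95444878-95444907 and chr4:149126764-149126793, all on the minus strand. The stretches of Sst and Crhbp lie inside the GENCODE genes, whose starts are further upstream. A match is a description of letters and not of a bound site.
Sst: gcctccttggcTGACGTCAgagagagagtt
Crhbp: gagctggaccctCGTCAttgccacgcattt
Cort: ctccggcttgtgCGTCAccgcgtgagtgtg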

How the data were processed

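Cell Ranger (3.0.2 at P1, otherwise 3.1.0) was used by the authors for alignment to GRCm38, and UMI counts per gene and cell were deposited unnormalized. From these counts, numpy 2.4.6, pandas 2.3.3, scipy 1.17.1 and matplotlib 3.10.9 under Python 3.11.15 gave sums per class, exact Poisson and Clopper-Pearson 95% intervals, and log2 ratios with a pseudocount of 1 CPM. Cells were thinned without replacement with seed 20. Doublets were left in. The steps were tested on simulated data. The members, the lists of peptide processing, receptors, other neuropeptides and cell type markers, and the settings were chosen with earlier results of these data known. The striatal list was shortened by 1 gene after its values were seen, for reasons unrelated to them. From each list, genes with 20 CPM or more in a class and past 2-fold the same way at P1 and P5 are named, at most 6, with the most abundant gene. Correlated genes were the 3 with the highest lower r, from 0.3, among genes in 5% of cells, with counts scaled to 10000 per cell. Alternatives covered the Nos1 and Lhx6 thresholds, cell filters, doublet-like cells, scaling, pseudocount, the UMI minimum and thinning.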

Additional observations from a re-analysis of the deposited data

Results flagged for a closer look

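For 4 members the change between stages had opposite signs in the 2 classes, each with an interval that left out 0. The difference between the classes was not tested, since there is 1 library per stage, and for 3 of the 4 the opposite signs depended on the cells kept. Npy changed by 1.00 (0.96 to 1.03) on the log2 scale from E16.5 to P1 in Nos1 cells and by -0.44 (-0.47 to -0.40) in Lhx6 cells without Nos1, which became 0.68 with over 1000 genes and under 5% mt- UMIs. From P1 to P5 it changed by 0.49 (0.47 to 0.51) in Nos1 cells and by -0.57 (-0.61 to -0.52) in Lhx6 cells. The Npy level of the Neurod cells was highest at P1, at 615 CPM (491 to 762), where 5 of 23 cells held 82.1% of the UMIs, and the part of free RNA in the Lhx6 values was not tested. Cort changed by -1.26 (-1.69 to -0.81) from E16.5 to P1 in Nos1 cells and by 1.35 (1.25 to 1.46) in Lhx6 cells. Of the 75 Cort UMIs of Nos1 cells at E16.5, 49 lay in cells with only 1 Nos1 UMI and 16 in 1 other cell. Tac1 changed by -3.79 (-4.58 to -3.03) in Nos1 cells and by 1.10 (0.90 to 1.29) in Lhx6 cells over the same step, the latter -0.21 under that filter. Nts changed by -2.80 (-4.00 to -1.48) in Nos1 cells, where 13 of 14 UMIs at E16.5 came from 1 cell and the change was 0.27 without the 5% of cells with most UMIs, and by 1.45 (0.90 to 1.77) in Lhx6 cells.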

How the results depend on the processing

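Of 360 class ratios under 12 alternatives, 0 changed sign among those called, and 255 of 264 called values kept their side of 2-fold. Some calls were gained. With over 1000 genes and under 5% mt- UMIs, 2 of 8 class ratios and 6 of 21 stage ratios not past 2-fold in the main setting passed it. Of 480 stage ratios, 3 called values changed sign and 204 of 228 kept their side. Nts from E16.5 to P1 in Nos1 cells became 0.27 without the 5% of cells with most UMIs, and Tac1 from P1 to P5 in Nos1 cells became -0.87 with 2 or more Nos1 UMIs. With over 1000 genes and under 5% mt- UMIs, Tac1 from E16.5 to P1 in Lhx6 cells became -0.21, and there 1 member in place of 6 was higher and 1 lower, while from P1 to P5 1 was lower in place of 0. A pseudocount of 10 CPM gave 2 lower at P5 between classes in place of 6, 1 higher from E16.5 to P1 in Nos1 cells in place of 2, and in Lhx6 cells 2 higher at that step in place of 6 and 2 from P1 to P5 in place of 4. A minimum of 50 UMIs gave 1 and 3 higher from E16.5 to P1 in Nos1 and Lhx6 cells. Without the 5% of cells with most UMIs, 1 was lower in Nos1 cells at that step in place of 3, and with no minimum 1 was lower from P1 to P5 in place of 0. The pseudocount and the UMI minimum act on members with few UMIs by construction; for the others the cause was not tested. At P1 Crhbp fell to 0.96 between classes with over 1000 genes and under 5% mt- UMIs, and at P5 Tac1 ranged from -3.92 to -0.34. Of 180 pair values at other depths, 0 changed side of 1 among those off 1, and 46 of 62 stayed off 1. Of the 59 pairs not off 1, 6 moved off it at 1000 UMIs and 16 without thinning. Shares without thinning were added after seeing the data. Depth limits the rare members: Crh and Nts had 70 and 36 UMIs in Lhx6 cells at P5.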

Other observations

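Cells with a UMI of neither Lhx6 nor Nos1 were shallower, with a median of 3947.5, 1559 and 2469 UMIs at E16.5, P1 and P5. Sst in these cells was 2729 CPM (2668 to 2791), 2156 (2065 to 2250) and 1567 (1508 to 1629) by stage. Their Npy was 928 CPM (893 to 965), 2763 (2660 to 2869) and 1274 (1221 to 1330), which at P1 and P5 lay between the Nos1 cells and the Lhx6 cells without Nos1. Their Cort was 50.6 CPM (42.6 to 59.6), 119 (98.2 to 142) and 485 (452 to 519).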
